A study of Mus musculus with 4 samples.

Results

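The regional factors described here were 9 transcription factor genes that mark positions along the head-to-tail axis of the early brain, from Six3 at the front, through Emx2, Lhx2, Otx1 and Otx2, to En1, En2 and Gbx2 around the border of midbrain and hindbrain, together with Zic1 of the dorsal neural tube. They were chosen by name, and every probe set annotated to 1 of them was read, which gave 12 probe sets of 45101 on the array and 9 genes of 18193. Total RNA of 4 mouse cell populations had been hybridised to Affymetrix arrays, with 1 array for each. The populations were induced neural stem cells made with 14 factors (iNSC_14F) or with 13 factors (iNSC_13F), primary-derived neural stem cells (NSC) and mouse embryonic fibroblasts (MEF). NSC and both induced populations were grown in N2 medium supplemented with laminin, bFGF and EGF, and the sources used here do not give the culture of MEF. The series title names B lymphocytes and adult liver cells as the cells reprogrammed, but the labels do not say which gave rise to each induced population, which factors were used or whether a population was 1 clone, so RNA of an introduced factor gene and RNA of the cell's own gene cannot be told apart here. Strain, age and the brain region that gave NSC are not given either, and the source label calls all 4 samples embryonic stem cells. With 1 array per population replicate spread could not be measured, no test was possible, and neither SD nor p-value accompanies the values.

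The neural tube is divided early into forebrain, midbrain and hindbrain, and each domain is set up by transcription factors that keep one another within borders. Otx2 occupies forebrain and midbrain and Gbx2 the anterior hindbrain, and the line where they meet positions the organising centre between midbrain and hindbrain. Neural stem cells taken from one region and grown in culture often keep part of the regional factor expression of their origin.

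A signal was read as above background only where it exceeded a floor of 103.91. To set this floor, the 95th percentile of 86 taste, odorant and vomeronasal receptor probe sets, whose genes should be silent in these cells, was taken on each array, and the highest of the 4 was used. Values below the floor were set to it before a difference was taken, so a fold against an array below the floor is a lower bound, written "at least". Background was not equal on the arrays: the percentile was 70.9 on iNSC_14F, 99.4 on iNSC_13F, 37.1 on NSC and 104 on MEF. Spiked-in hybridization controls (bacterial and phage RNAs) were 1.86-fold brighter on iNSC_14F than on NSC, 2.11-fold brighter on iNSC_13F than on NSC and 1.85-fold brighter on MEF than on NSC. Scaling the arrays to these controls moved the median log2 difference of all measured genes by -0.80 for iNSC_14F over NSC, by -0.95 for iNSC_13F over NSC and by 0.81 for NSC over MEF. That scaling moves all genes of a comparison together, so values under it are read beside the same difference taken relative to the median of all measured genes.

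The labelled cell types were checked against marker genes. Of 9 neural stem cell markers, 8 were above the floor on iNSC_14F, 8 on iNSC_13F, 9 on NSC and 3 on MEF. Their summed signal was 90245, 78160, 79012 and 1597 in that order. Olig1 and Fabp7 made up most of the sum on iNSC_14F, iNSC_13F and NSC. The marker below the floor on both induced arrays was Sox1, at 93.2 on iNSC_14F, 96.8 on iNSC_13F and 525 on NSC. Sox1 was at least 5.05-fold lower in each induced population than in NSC. Of 9 fibroblast markers, 3 were above the floor on iNSC_14F, 7 on iNSC_13F, 2 on NSC and 9 on MEF, with summed signals of 4120, 4227, 863 and 187155. Of 7 pluripotent cell markers, 1, Esrrb, was above the floor on both induced arrays and 0 were on NSC or MEF, which goes against the embryonic stem cell label. Of 6 neuronal markers 2 were above the floor on iNSC_14F, 3 on iNSC_13F, 2 on NSC and 2 on MEF. No hepatocyte marker (5 with a probe set) and no B lymphocyte marker (4 with a probe set) was above the floor on any of the 4 arrays. Of 6 genes of choroid plexus and meninges, tissues that can express Otx2 or Zic1, 1 was above the floor on iNSC_14F, 2 on iNSC_13F, 1 on NSC and 3 on MEF.

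Of the 9 regional factors, 4 were above the floor on iNSC_14F, 5 on iNSC_13F, 6 on NSC and 3 on MEF. Emx2, Lhx2 and Zic1 were above it on all 4 arrays. Otx1 and Otx2 passed it on NSC alone, En2 on iNSC_14F alone and Gbx2 on iNSC_13F alone, while Six3 passed it on iNSC_13F and NSC. En1 was below it everywhere. Lhx2 and Zic1 were far higher in all 3 neural populations than in MEF, while Six3 and Otx2 were at least 2-fold lower in both induced populations than in NSC (Six3 in iNSC_13F short of it after quantile normalization). With a higher floor, at the 99th percentile, neither Six3 nor Otx2 was 2-fold lower in either induced population. Gene positions below are those of RefSeq on GRCm38.p6, matched by gene name. The arrays measure a whole population, so fewer cells with a transcript and less transcript per cell cannot be told apart.

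**Figure D1:**
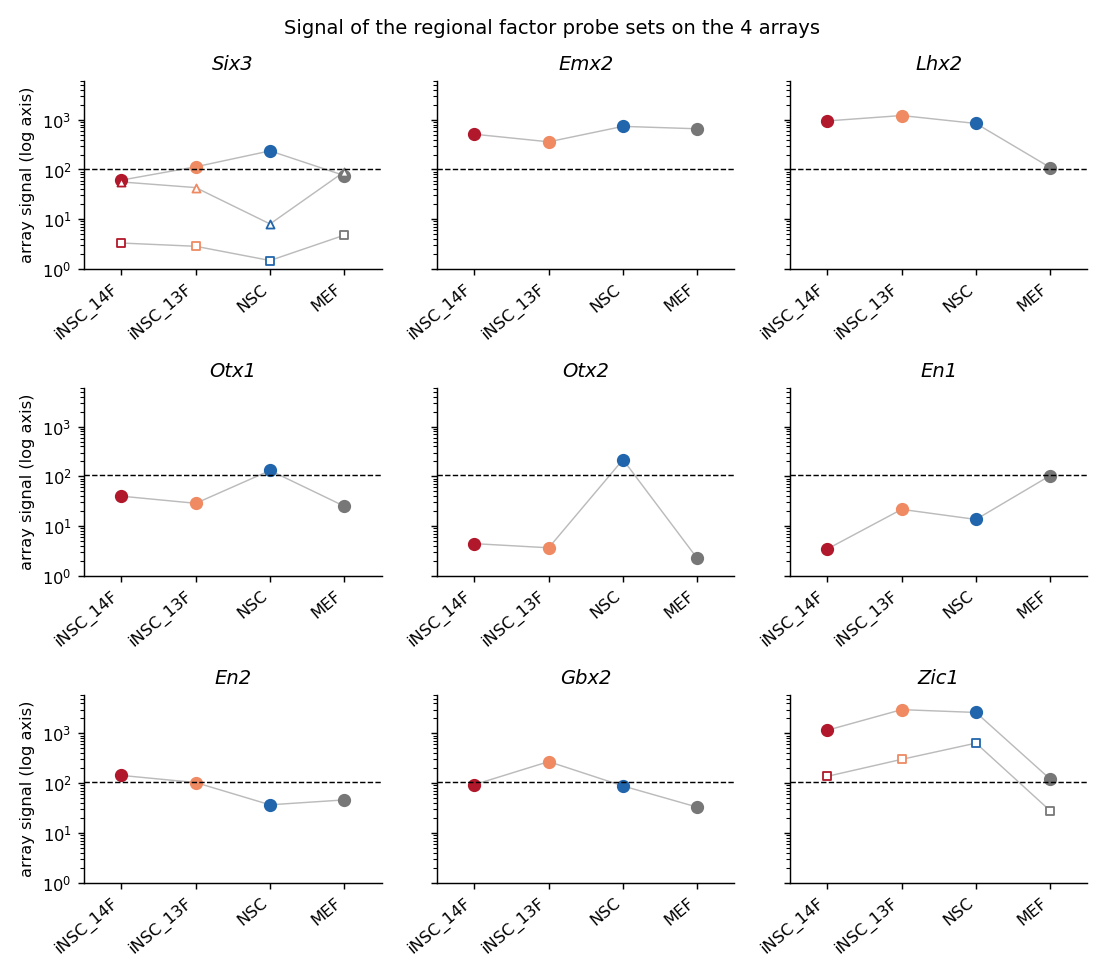
Array signal (vertical, log axis) of each regional factor on the iNSC_14F, iNSC_13F, NSC and MEF arrays (horizontal, 1 array each). Filled circles are the brightest probe set of a gene, open symbols its other probe sets, grey lines join the values of 1 probe set across the unordered arrays, and the dashed line is the floor of 103.91. Otx2 stood at 216 on NSC and under 5 on the other 3 arrays, and Zic1 and Lhx2 were lowest on MEF.

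Promoter sequence is shown for Otx2, above the floor on NSC alone, and for Zic1 and Lhx2, higher on all 3 neural arrays than on MEF, so that the genes on either side of this contrast can be compared. RefSeq (GRCm38.p6) held a promoter for 7 of the 9 genes, Otx1 and En2 being the other two. Each line gives the 250 bases before the most upstream start in RefSeq's promoter table, 5′ to 3′ on the gene's strand. Starts in that table need not be the end of the annotated gene span given below: the Lhx2 window ends a few bases inside the span of Lhx2. Capitals mark matches, on either strand, to TAATTA, the core bound by many homeodomain proteins, or ACAAT, the core bound by Sox proteins. A search for TAATCC, the bicoid-class sequence bound by Otx proteins, was included and gave no match in these windows.
Otx2 (chr14:48667645-48667894, minus strand): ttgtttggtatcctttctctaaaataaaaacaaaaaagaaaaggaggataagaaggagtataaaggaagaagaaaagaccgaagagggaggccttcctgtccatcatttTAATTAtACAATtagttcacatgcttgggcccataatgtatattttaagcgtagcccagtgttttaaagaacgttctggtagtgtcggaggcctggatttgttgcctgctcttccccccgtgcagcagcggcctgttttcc
Zic1 (chr9:91365769-91366018, minus strand): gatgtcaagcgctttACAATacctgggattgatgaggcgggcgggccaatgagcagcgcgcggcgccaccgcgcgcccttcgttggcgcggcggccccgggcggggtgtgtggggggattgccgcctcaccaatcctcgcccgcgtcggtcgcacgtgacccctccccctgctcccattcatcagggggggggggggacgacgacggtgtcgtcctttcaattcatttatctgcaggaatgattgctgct
Lhx2 (chr2:38339031-38339280, plus strand): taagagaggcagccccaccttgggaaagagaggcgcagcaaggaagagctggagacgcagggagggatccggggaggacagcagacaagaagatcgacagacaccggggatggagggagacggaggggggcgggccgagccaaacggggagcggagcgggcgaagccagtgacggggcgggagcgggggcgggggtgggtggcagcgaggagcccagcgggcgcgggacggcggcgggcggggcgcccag
The Otx2 window held 1 TAATTA and 1 ACAAT, which lay 1 base apart, the Zic1 window held 1 ACAAT, and the Lhx2 window held no match to any of the 3 motifs. Among 32851 promoter windows of the same length, 4.84% held TAATTA, 27.7% held ACAAT and 6.25% held TAATCC. The windows of Six3, Emx2, En1 and Gbx2 held none of them. G and C made up 42% of the Otx2 window, 66% of the Zic1 window and 72.8% of the Lhx2 window, against a median of 52.4% over all windows. A match is a run of letters and was not tested as a binding site.

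Six3 (chr17:85613608-85626191), a homeodomain factor of the most anterior forebrain and the eye field, was brightest on NSC. Its brightest probe set gave a signal of 61.1 on iNSC_14F, 113 on iNSC_13F, 237 on NSC and 75.4 on MEF. The NSC value lay above all 86 receptor probe sets of its array, whereas 1 receptor probe set was brighter than Six3 on iNSC_13F, 5 were on iNSC_14F and 9 were on MEF. Six3 was therefore at least 2.28-fold lower in iNSC_14F than in NSC, 2.09-fold lower in iNSC_13F than in NSC and at least 2.28-fold higher in NSC than in MEF. The other 2 probe sets of Six3 were below the floor on all 4 arrays, and 1 of them was lowest on NSC, at 8.03, against 56.2 on iNSC_14F, 43.2 on iNSC_13F and 90.4 on MEF. The Six3 difference thus rests on 1 of 3 probe sets. After quantile normalization Six3 fell short of 2-fold in iNSC_13F, at a log2 difference of -0.92 from NSC, against -1.06 as deposited. Relative to the median of all measured genes these were -1.29 and -1.36. Scaled to the hybridization controls the difference in iNSC_13F was a bound of -2.08, and -1.43 relative to that median. With the floor at the 99th percentile of the receptor probe sets it was -0.37 in each induced population.

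Genes beside Six3 on chromosome 17 were then read, a choice made after the values of the regional factors had been seen. Six3os1, a long noncoding RNA whose gene overlaps Six3 by 4789 bases, had signals of 10.6 on iNSC_14F, 39.9 on iNSC_13F, 109 on NSC and 39.2 on MEF, and so passed the floor on NSC alone. Six2, a related homeobox gene of mesenchyme and kidney that lies 36544 bases beyond Six3, had signals of 153 on iNSC_14F, 298 on iNSC_13F, 3.70 on NSC and 313 on MEF. Six2 was above the floor on every array but NSC, the array on which its neighbour Six3 was brightest. It was 2.04-fold lower in iNSC_14F than in MEF, and short of 2-fold after quantile normalization, at a log2 difference of -0.79.

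Emx2 (chr19:59458690-59465357), a homeodomain factor that patterns the cerebral cortex and also acts in the urogenital system, was less than 2-fold apart between each neural population and MEF as deposited. Its probe set gave 512 on iNSC_14F, 360 on iNSC_13F, 736 on NSC and 658 on MEF, and all 4 values were above every receptor probe set of their array. It was 2.04-fold lower in iNSC_13F than in NSC and 1.44-fold lower in iNSC_14F than in NSC, and NSC and MEF were within 1.12-fold of each other. With quantile normalization the log2 difference of iNSC_13F from NSC was -0.69, against -1.03 as deposited, and so no longer reached 2-fold. Scaled to the hybridization controls, the log2 differences were -1.42 for iNSC_14F over NSC, -1.06 for iNSC_13F over MEF and 1.05 for NSC over MEF. Less the median of all measured genes under that scaling, these were -0.95, -0.98 and 0.25, each short of 2-fold. For iNSC_13F over NSC the log2 difference of Emx2 was -2.11 with that scaling, and -1.46 less the median. Less the median of all measured genes it was also past 2-fold as deposited, at -1.33, and after quantile normalization, at -1.06. Emx2os, the antisense RNA gene that begins 54 bases from Emx2, had signals of 79.8 on iNSC_14F, 93.6 on iNSC_13F, 53.9 on NSC and 117 on MEF, a single value above the floor.

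Lhx2 (chr2:38339271-38369737), a LIM homeodomain factor needed for cortex and eye, was at like levels in the 3 neural populations. Its signals were 947 on iNSC_14F, 1215 on iNSC_13F, 841 on NSC and 109 on MEF. Relative to MEF, where it lay just above the floor, it was higher by 8.66-fold in iNSC_14F, by 11.1-fold in iNSC_13F and by 7.69-fold in NSC. The induced arrays were 1.13-fold (iNSC_14F) and 1.45-fold (iNSC_13F) higher than NSC as deposited. Scaled to the hybridization controls the log2 differences were -0.73 for iNSC_14F and -0.54 for iNSC_13F. Lhx2, taken relative to the median of all measured genes, differed from NSC by -0.16 in iNSC_14F and 0.23 in iNSC_13F as deposited, and by -0.25 in iNSC_14F and 0.10 in iNSC_13F with that scaling.

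Otx1 (chr11:21994764-22001651) and Otx2 (chr14:48656781-48667644), bicoid-class homeodomain factors of forebrain and midbrain, were detected on NSC only. Otx2 had signals of 4.43 on iNSC_14F, 3.65 on iNSC_13F, 216 on NSC and 2.23 on MEF. On NSC it was brighter than all 86 receptor probe sets and lay 5.84-fold above their 95th percentile, while 64 receptor probe sets were brighter on iNSC_14F, 79 on iNSC_13F and 79 on MEF. It was at least 2.08-fold lower in each induced population than in NSC, and at least 2.08-fold higher in NSC than in MEF. The size of this bound is set by the floor: with the floor at the 75th percentile of the receptor probe sets the log2 difference from NSC was -2.11 for each induced population, and with it at the 99th percentile it was -0.24. Without a floor, as log2(signal + 16), it was -3.51 for iNSC_14F and -3.56 for iNSC_13F. Otx1 had signals of 39.8 on iNSC_14F, 28.6 on iNSC_13F, 131 on NSC and 25.0 on MEF. It was at least 1.26-fold lower in each induced population than in NSC, short of 2-fold, although on NSC no receptor probe set was brighter and on the other arrays 13 (iNSC_14F), 41 (iNSC_13F) and 47 (MEF) were. With the arrays scaled to the hybridization controls the log2 difference of Otx1 was -1.22 in both cases. Relative to the median of all measured genes it was -0.75 in iNSC_14F and -0.57 in iNSC_13F with that scaling, against -0.66 in iNSC_14F and -0.63 in iNSC_13F as deposited. The noncoding neighbour Otx2os1 was below the floor on all 4 arrays, with signals between 24.6 and 57.5.

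En1 (chr1:120602487-120607991) and En2 (chr5:28165696-28172190), the engrailed homeodomain factors of midbrain and anterior hindbrain, were at or below background almost throughout. En1, which is also active in limb ectoderm and part of the dermis, had signals of 3.46 on iNSC_14F, 21.6 on iNSC_13F, 13.6 on NSC and 104 on MEF. The MEF value lay just under the floor, with 5 receptor probe sets above it. En2 had signals of 143 on iNSC_14F, 102 on iNSC_13F, 36.6 on NSC and 45.9 on MEF. On iNSC_14F no receptor probe set was brighter, against 4 on iNSC_13F, 5 on NSC and 26 on MEF. It was at least 1.37-fold higher in iNSC_14F than in each of the other 3 populations, which is short of 2-fold. The size of this bound over NSC and MEF is set by the floor. With the floor at the 75th percentile the log2 difference of iNSC_14F was 1.51 over NSC and 1.51 over MEF. Without a floor it was 1.59 over NSC and 1.36 over MEF. Under both settings En2 was also at least 2-fold higher in iNSC_13F than in NSC.

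Gbx2 (chr1:89927962-89931176), a homeodomain factor of the anterior hindbrain that opposes Otx2 at the border, was brightest on iNSC_13F. Its signals were 93.1 on iNSC_14F, 270 on iNSC_13F, 87.5 on NSC and 32.8 on MEF. It was at least 2.60-fold higher in iNSC_13F than in NSC and than in MEF, and at least 2.60-fold lower in iNSC_14F than in iNSC_13F. NSC was under the common floor but above all 86 receptor probe sets of its own, dimmer array. Scaled to the hybridization controls Gbx2 passed the floor on NSC, and the log2 difference of iNSC_13F from NSC was 0.55, short of 2-fold. Taken relative to the median of all measured genes it was 1.08 as deposited and 1.20 under that scaling. The 2-fold difference from MEF remained under that scaling, at a log2 bound of 1.19. With the floor at the 99th percentile both differences were 0.56 on the log2 scale.

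Zic1 (chr9:91358058-91365768), a zinc finger factor of the dorsal neural tube and cerebellar progenitors, was higher in each neural population than in MEF. Its brighter probe set gave 1155 on iNSC_14F, 2995 on iNSC_13F, 2630 on NSC and 120 on MEF. Relative to MEF it was higher by 9.66-fold in iNSC_14F, by 25.0-fold in iNSC_13F and by 22.0-fold in NSC. On MEF it lay near the floor, with 2 receptor probe sets brighter. In iNSC_14F it was 2.28-fold lower than in NSC and 2.59-fold lower than in iNSC_13F. Its other probe set gave 137 on iNSC_14F, 300 on iNSC_13F, 636 on NSC and 27.7 on MEF. By that probe set Zic1 was higher than in MEF by at least 1.32-fold in iNSC_14F, short of 2-fold, by at least 2.89-fold in iNSC_13F and by at least 6.12-fold in NSC. It was 4.65-fold lower in iNSC_14F than in NSC and 2.12-fold lower in iNSC_13F than in NSC, whereas the brighter probe set put iNSC_13F 1.14-fold above NSC. The probe sets therefore gave the same direction for iNSC_14F against NSC, iNSC_14F against iNSC_13F and each neural population against MEF, and opposite directions for iNSC_13F against NSC. Scaled to the hybridization controls, the brighter probe set gave a log2 difference of -0.89 for iNSC_13F over NSC. Set against the median of all measured genes it was -0.11 as deposited and -0.24 with that scaling. Zic4, whose gene overlaps the start of Zic1 by 138 bases head to head and covers the Zic1 window printed above, was below the floor on all arrays with both of its probe sets, the highest value being 38.7.

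Differences between the 2 induced arrays served as a scale for the others, although they hold real differences as well as noise. Over 9330 genes above the floor on both, 95% lay within 2.32-fold, and over the 2384 genes with a mean signal between 1000 and 3000 within 2.12-fold. Dimmer genes spread more, with 95% within 2.43-fold below 300 and within 2.53-fold between 300 and 1000. The 2.59-fold difference of Zic1 by its brighter probe set lay outside its range. By its other probe set, with a mean signal below 300, the difference was 2.19-fold and lay within the 2.43-fold given for such signals. Lhx2 was 1.28-fold lower and Emx2 1.42-fold higher in iNSC_14F than in iNSC_13F, both within theirs. The differences of Six3 (2.09-fold) and Emx2 (2.04-fold) between iNSC_13F and NSC were no larger than this spread at their signal.

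**Figure D2:**
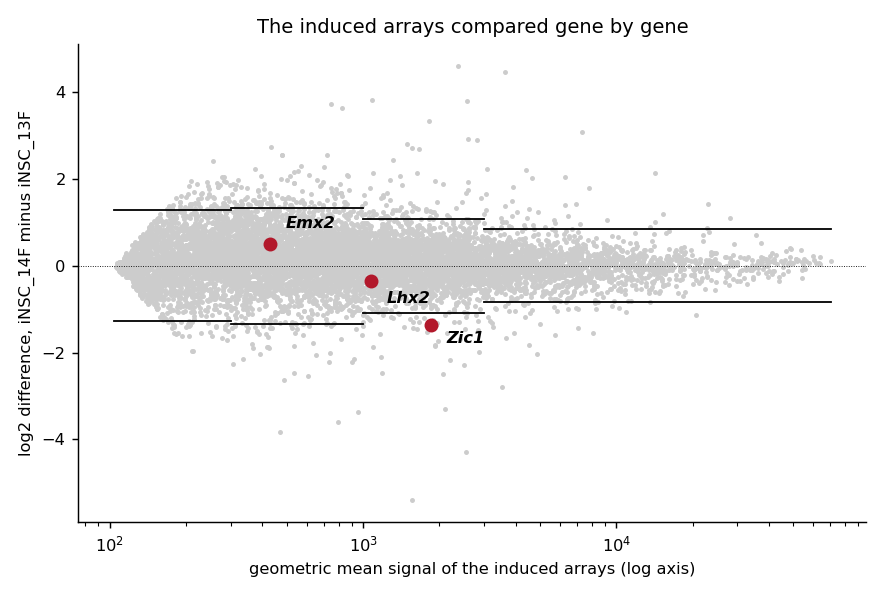
Log2 difference, iNSC_14F minus iNSC_13F, against the geometric mean signal of the 2 induced arrays (log axis) for the 9330 genes above the floor on both. Grey points are genes, red points the 3 regional factors among them, and black lines enclose 95% of genes in each of 4 signal ranges. Zic1, by its brighter probe set, lies below the lower line, and Emx2 and Lhx2 lie within the lines.

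The members were then counted in each comparison beside the whole array. Against NSC, 7 of 9 members had at least 1 value above the floor in each comparison, and only these could differ. In iNSC_14F 0 were higher by 2-fold or more and 3 were lower (Six3, Otx2 and Zic1), where 16.9% of all measured genes were higher and 19.1% lower (36.0% apart). In iNSC_13F 1 was higher (Gbx2) and 3 were lower (Six3, Emx2 and Otx2), where 14.9% of all measured genes were higher and 20.5% lower (35.4% apart). The median log2 difference of the measured members was -0.52 for iNSC_14F and -0.33 for iNSC_13F, against 0.33 and 0.30 over all measured genes. Six3 and Otx2 were thus at least 2-fold lower than in NSC in both induced populations, which are compared with the same NSC array. With the floor at the 99th percentile neither was, at log2 differences of -0.37 for Six3 and -0.24 for Otx2 in each. Six3 in iNSC_13F also fell short after quantile normalization, at -0.92, and without a floor, at -0.97. Scaled to the hybridization controls it stayed past 2-fold, at -2.08. By the median of its probe sets Six3 was below the floor on all arrays. Against MEF, 4 members were measured in iNSC_14F, of which 2 were higher (Lhx2 and Zic1), with 18.1% of all measured genes higher and 36.7% apart in either direction. In iNSC_13F 5 were measured and 3 were higher (Lhx2, Zic1 and Gbx2), with 15.7% of all genes higher and 36.2% apart. In NSC against MEF 6 were measured and 4 were higher (Six3, Lhx2, Otx2 and Zic1), with 19.6% of all genes higher and 36.9% apart. None of the members was at least 2-fold lower than in MEF in these 3 comparisons, where 18.6% (iNSC_14F), 20.5% (iNSC_13F) and 17.2% (NSC) of all measured genes were. En1, just under the floor on MEF, was at least 2-fold lower in all 3 with the floor at the 75th percentile and without a floor. Between the induced arrays 6 were measured, of which 0 were higher and 2 lower in iNSC_14F (Gbx2 and Zic1), with 5.99% of all genes higher and 2.95% lower (8.93% apart).

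**Figure D3:**
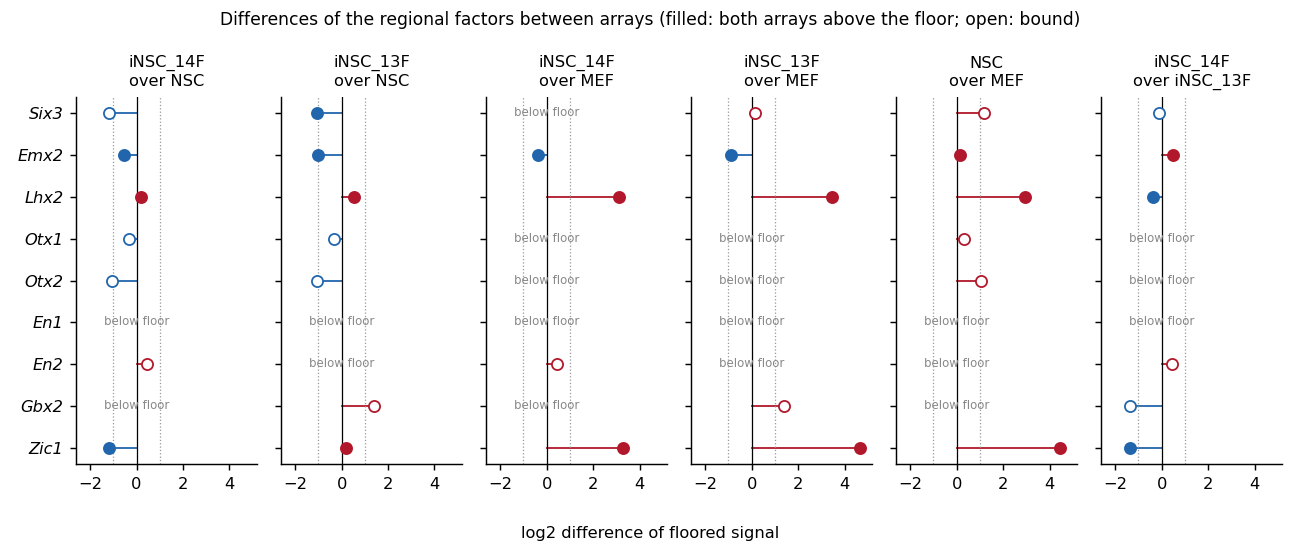
Log2 difference of floored signal (horizontal) for each regional factor (rows) in the 6 comparisons (panels), with red for higher and blue for lower in the population named first. Filled points had both arrays above the floor, open points are bounds, "below floor" marks genes with no value above it, and dotted lines mark 2-fold. Six3 and Otx2 lie at or beyond the left dotted line in both comparisons with NSC, and Lhx2 and Zic1 lie far right in all 3 comparisons with MEF.

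Other genes of the same brain regions were read from lists set apart from the members. Of 30 further forebrain genes 28 had a probe set, and 6 were above the floor on iNSC_14F, 9 on iNSC_13F, 5 on NSC and 7 on MEF. Against NSC, 6 were measured in iNSC_14F, with 1 at least 2-fold higher and 0 lower, and 9 in iNSC_13F, with 1 higher and 1 lower. Of all measured genes 16.9% were higher and 19.1% lower in iNSC_14F, and 14.9% higher and 20.5% lower in iNSC_13F. The list medians were 0.00 for iNSC_14F and 0.26 for iNSC_13F. Scaled to the hybridization controls there were 1 higher and 3 lower of 7 in iNSC_14F and 0 higher and 2 lower of 8 in iNSC_13F, with a median of -0.31 in each. Relative to the median of all measured genes the list median was -0.33 in iNSC_14F and -0.042 in iNSC_13F as deposited, and 0.16 in iNSC_14F and 0.34 in iNSC_13F with that scaling, so its direction depends on the scaling. Pax6, a paired homeodomain factor of forebrain progenitors and other neural regions, had signals of 686 on iNSC_14F, 404 on iNSC_13F, 851 on NSC and 10.3 on MEF. It was 2.11-fold lower in iNSC_13F than in NSC, and short of 2-fold after quantile normalization, at a log2 difference of -0.76. Of its other probe sets, one gave 131 on iNSC_14F, 109 on iNSC_13F, 147 on NSC and 6.49 on MEF, and another 107 on iNSC_14F, 137 on iNSC_13F, 95.9 on NSC and 98.0 on MEF, so neither was 2-fold lower in iNSC_13F than in NSC. Nr2f1, a nuclear receptor of caudal and lateral cortex, had signals of 7095 on iNSC_14F, 4819 on iNSC_13F, 4082 on NSC and 380 on MEF, and Dmrta2, which acts in cortical patterning, had 1397, 1079, 2034 and 250.4 in the same order. Both were higher in every neural population than in MEF, by 4.31-fold (Dmrta2 in iNSC_13F) to 18.7-fold (Nr2f1 in iNSC_14F). Nr2f2, a nuclear receptor also found in mesenchyme, was the forebrain gene higher than in NSC in both induced populations, with 886 on iNSC_14F, 776 on iNSC_13F, 221 on NSC and 775 on MEF. It was 4.01-fold higher in iNSC_14F and 3.51-fold higher in iNSC_13F than in NSC, and the iNSC_13F value fell short of 2-fold with scaling to the hybridization controls, at a log2 difference of 0.74. Relative to the median of all measured genes that value was 1.38 under the same scaling.

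Of 17 further genes of the midbrain and its border 16 had a probe set, and 3 were above the floor on iNSC_14F, 5 on iNSC_13F, 2 on NSC and 3 on MEF. The signalling genes Fgf8, Fgf17 and Wnt1 and the paired box genes Pax5 and Pax8, which act with En1 and En2 at the border, were below the floor on all 4 arrays. Meis2, a homeodomain factor of midbrain and of other tissues, had signals of 1034 on iNSC_14F, 373 on iNSC_13F, 2175 on NSC and 906 on MEF. It was 2.10-fold lower in iNSC_14F than in NSC and 5.83-fold lower in iNSC_13F than in NSC, and 2.77-fold higher in iNSC_14F than in iNSC_13F. Of its other probe sets, 1 gave 592 on iNSC_14F, 236 on iNSC_13F, 1528 on NSC and 558 on MEF. Another gave 221 on iNSC_14F, 184 on iNSC_13F, 660 on NSC and 383 on MEF. Both put each induced population at least 2-fold below NSC, but by the dimmer of them the induced arrays were less than 2-fold apart. Gata2, a zinc finger factor of midbrain and blood, had 163 on iNSC_14F, 242 on iNSC_13F, 42.3 on NSC and 603 on MEF. It was at least 2.33-fold higher in iNSC_13F than in NSC. Its other probe set gave 29.6 on iNSC_14F, 82.0 on iNSC_13F, 6.88 on NSC and 305 on MEF. That probe set passed the floor on MEF alone and so did not show Gata2 in iNSC_13F. Against NSC the list had 0 higher and 1 lower of 3 measured in iNSC_14F (median 0.65) and 1 higher and 1 lower of 5 measured in iNSC_13F (median 0.22). Of all measured genes 16.9% were higher and 19.1% lower in iNSC_14F, and 14.9% higher and 20.5% lower in iNSC_13F. Scaled to the hybridization controls there were 0 higher and 1 lower of 4 in iNSC_14F (median -0.36), and 1 higher and 2 lower of 5 in iNSC_13F (median -0.034). Relative to the median of all measured genes these were 0.11 in iNSC_14F and 0.61 in iNSC_13F, against 0.32 in iNSC_14F and -0.084 in iNSC_13F as deposited.

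Of 18 hindbrain genes 13 had a probe set, and 6 were above the floor on iNSC_14F, 6 on iNSC_13F, 1 on NSC and 6 on MEF. Against NSC, 4 of 6 measured reached 2-fold upward and 0 downward in each induced population, with medians of 2.78 for iNSC_14F and 2.53 for iNSC_13F. The genes were Hoxa2, Hoxb2, Hoxa3 and Hoxb3, homeodomain factors whose anterior limits lie in the hindbrain. Of all measured genes 16.9% were higher and 19.1% lower in iNSC_14F than in NSC, and 14.9% higher and 20.5% lower in iNSC_13F. Hoxa2 had signals of 892 on iNSC_14F, 793 on iNSC_13F, 14.4 on NSC and 155 on MEF, and Hoxb2 had 865, 933, 42.3 and 862 in the same order. Both were above the floor on every array on which Otx2 was below it, and below it on NSC, where Otx2 was above it. All 4 Hox genes remained at least 2-fold higher than in NSC after quantile normalization and after scaling to the hybridization controls, with log2 bounds from 1.94 (Hoxb3 in iNSC_13F) to 3.67 (Hoxa3 in iNSC_14F). With scaling to the controls 1 of 5 measured genes of the list was lower in iNSC_13F than in NSC. A second Hoxb3 probe set gave 128 on iNSC_14F, 12.9 on iNSC_13F, 12.6 on NSC and 134 on MEF, and so did not show Hoxb3 in iNSC_13F. The one hindbrain gene above the floor on NSC was Egr2, a zinc finger factor of rhombomeres that is also an early response gene of fibroblasts, with 673 on iNSC_14F, 425 on iNSC_13F, 626 on NSC and 3785 on MEF. Atoh1, Ptf1a and Gbx1 were below the floor on all arrays. By their brightest probe sets, all 4 Hox genes, Nr2f2, Gata2, Six2, Six5 and Isl2 were higher in at least 1 induced population than in NSC. All of these were also above the floor on MEF. Gbx2, higher in iNSC_13F than in NSC, was below it on MEF, at 32.8. Genes of the Tle, Lmo, Ldb and Pbx list read below went both ways. Of those higher in an induced population, Lmo2 and Lmo3 were below the floor on MEF, and Tle1, Tle2, Tle3, Lmo1, Pbx2 and Pbx3 were above it. Hoxa2 was 5.76-fold higher in iNSC_14F and 5.12-fold higher in iNSC_13F than in MEF, and Hoxa3 8.53-fold higher in iNSC_14F and 6.52-fold higher in iNSC_13F than in MEF. The summed fibroblast markers given above were higher on both induced arrays than on NSC. The rise was mostly through Fn1 on iNSC_14F, and through Fn1 and Twist1 on iNSC_13F. Fn1 had 3534 on iNSC_14F, 1954 on iNSC_13F and 255 on NSC. Twist1 had 54.7 on iNSC_14F, which is below the floor, 1241 on iNSC_13F and 10.8 on NSC. Thy1 had 171 on iNSC_14F, 472 on iNSC_13F and 41.2 on NSC. The fibroblast marker Prrx1 was lower, with 87.1 on iNSC_14F, 116 on iNSC_13F and 438 on NSC. Of the measured fibroblast markers 1 of 4 was higher and 1 lower in iNSC_14F than in NSC, and 3 of 7 were higher and 1 lower in iNSC_13F. The part of these markers in the differences was not tested.

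**Figure D4:**
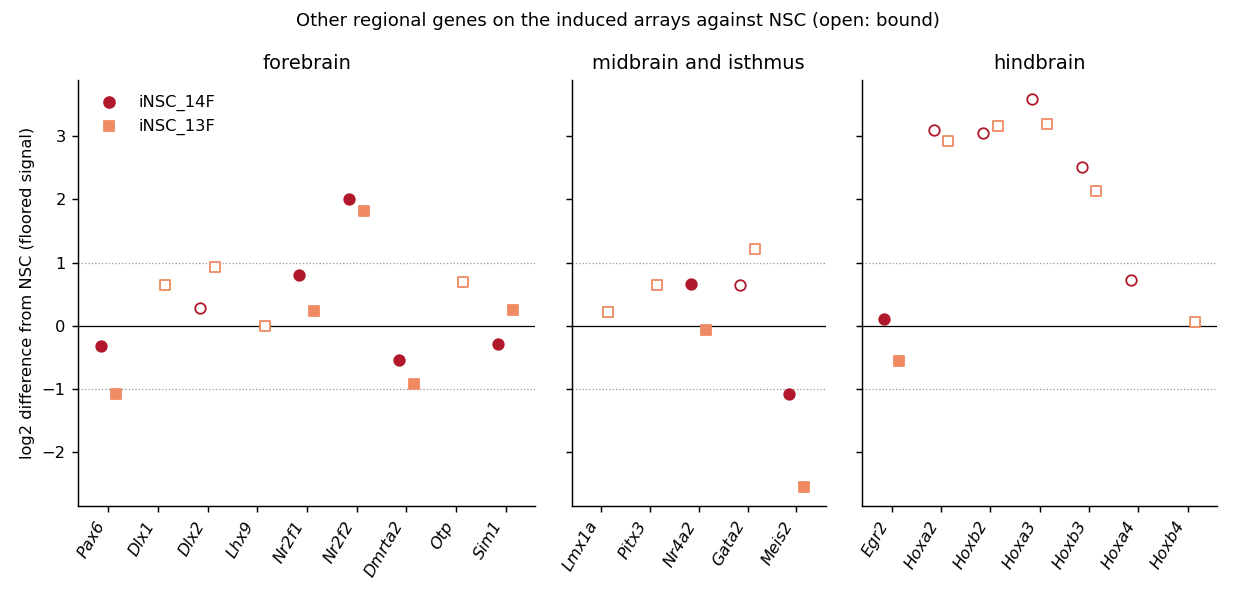
Log2 difference of floored signal from NSC (vertical) for further genes of forebrain, midbrain with isthmus, and hindbrain (panels), on iNSC_14F (circles) and iNSC_13F (squares). Genes shown passed the floor on iNSC_14F, iNSC_13F or NSC, open symbols are bounds, and dotted lines mark 2-fold. Hoxa2, Hoxb2, Hoxa3 and Hoxb3 lie above 2 on the log2 scale on both induced arrays, and Meis2 lies below the lower dotted line on both.

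Relatives of Zic1, Six3 and Lhx2 gave further values. Zic5, a neighbour and relative of Zic2, had signals of 125 on iNSC_14F, 176 on iNSC_13F, 615 on NSC and 64.5 on MEF. It was 4.91-fold lower in iNSC_14F and 3.49-fold lower in iNSC_13F than in NSC, and a second probe set, with 162, 212, 588 and 6.20 in the same order, had the same direction. Zic2 had 114 on iNSC_14F, 126 on iNSC_13F, 228 on NSC and 51.6 on MEF. Of 4 Zic relatives 3 had a probe set and 2 were measured, and against NSC 1 was lower in each induced population (medians -1.65 for iNSC_14F and -1.33 for iNSC_13F). Of all measured genes 16.9% were higher and 19.1% lower in iNSC_14F than in NSC, and 14.9% higher and 20.5% lower in iNSC_13F. Of 5 relatives of Six3 4 had a probe set and 0 were above the floor on NSC. Against NSC 1 of 2 measured was higher in iNSC_14F (Six5, median 0.84, short of 2-fold at 0.69 on the log2 scale with scaling to the hybridization controls) and 1 of 3 in iNSC_13F (Six2, median 0.56). Relative to the median of all measured genes Six5 in iNSC_14F was 1.16 with that scaling and 0.96 with quantile normalization. Of 11 LIM homeobox genes, relatives of Lhx2, all had a probe set and 0 were above the floor on NSC. Isl2, a factor of motor and sensory neurons, was at least 3.35-fold higher in iNSC_14F and at least 2.54-fold higher in iNSC_13F than in NSC, with signals of 348 on iNSC_14F, 264 on iNSC_13F, 76.1 on NSC and 146 on MEF. Scaled to the hybridization controls the iNSC_13F value of Isl2 was 0.72 on the log2 scale, and 1.36 relative to the median of all measured genes. The list median over NSC was 1.74 for iNSC_14F, from 1 measured gene, and 0.22 for iNSC_13F, from 3. Lhx9 had a probe set with 14.2 on iNSC_14F, 30.5 on iNSC_13F, 19.7 on NSC and 928 on MEF, while its brightest by mean log2 signal lay between 23.9 and 104.

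For each member that spanned at least 2-fold, the 3 genes with the nearest profile over the 4 arrays were taken, by the root mean square difference of centred log2 values among 11639 genes. Nearest to Zic1 were Tmem158 (0.088), Chn2 (0.19) and Rflna (0.30). Tmem158 had signals of 3124 on iNSC_14F, 7968 on iNSC_13F, 7889 on NSC and 303 on MEF, likewise lowest on iNSC_14F among the neural arrays. Nearest to Lhx2 were Mreg (0.091), Serinc5 (0.10) and Tafa5 (0.11), and nearest to Emx2 were Cebpg (0.055), Setd7 (0.063) and Ppp1r21 (0.065). Those nearest to Six3 (Defa31, Bora and Hyls1), Otx2 (Lnx1, Pcdhb21 and Zfp2) and Gbx2 (Tmem121b, Bmp2 and Rasgef1b) lay within 0.027. A profile of few values above the floor is shared by many genes, and 4 arrays allow no more than this description.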

How the data were processed

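Total RNA of 4 samples, 1 array per group, was grouped by sample title. The deposited values are array intensities, 1 linear signal per probe set, and the authors' method was MAS5 per the submitters' processing notes, its version and settings being not given in the sources used here. A 2% trimmed mean of 500 was found on each array, so no scaling was added. Of 45101 probe sets, 64 were controls, 34945 had 1 gene in the platform annotation (34741 matched by gene ID to GRCm38.p6 names), 932 had several and 9160 none, and probe sets of those 2 kinds stayed unnamed. Each gene was represented by the probe set of highest mean log2 signal. Differences were taken between log2 floored signals, and a call needed 2-fold and a value over the floor on the brighter array. With no replicates there was no test, and precision is limited by the number of arrays. Members and lists were chosen with earlier results of these data known. All members were named, with list genes past 2-fold or in short lists, and the 3 nearest profiles. Some list genes had no named probe set and were not analysed here. Alternatives were quantile normalization, scaling to 18 hybridization control probe sets, other floors, a pseudocount of 16, the median of probe sets, fewer probe sets, both arrays above the floor, and 4-fold. Python 3.11.15, pandas 2.3.3 and numpy 2.4.6 were used.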

Additional observations from a re-analysis of the deposited data

Results flagged for a closer look

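Zic1 differed from NSC in opposite directions in the induced populations. Its log2 difference from NSC was -1.19 for iNSC_14F and 0.19 for iNSC_13F with the brighter probe set. The difference between these values was not tested, since there was 1 array of each. The other probe set was lower than NSC in both, and with scaling to the hybridization controls the brighter one was too, at -2.09 for iNSC_14F and -0.89 for iNSC_13F. Relative to the median of all measured genes the brighter one was lower than NSC in both as deposited, by -1.52 for iNSC_14F and -0.11 for iNSC_13F. The sign in iNSC_13F thus varied with the probe set and with the scaling. By the brighter probe set iNSC_13F was within 1.14-fold of NSC as deposited. That is inside the 2.12-fold that held 95% of genes of its signal range between the induced arrays.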

How the results depend on the processing

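No paired analysis was possible because each group had 1 array. As reported, the number of the 9 genes at least 2-fold apart was 4 for NSC over MEF, 3 for iNSC_13F over MEF, 2 for iNSC_14F over MEF, 4 for iNSC_13F over NSC, 3 for iNSC_14F over NSC and 2 for iNSC_14F over iNSC_13F. Of 54 recounts under 9 alternatives, 34 stayed within 1.5 times of these and 20 did not. Quantile normalization gave 2 for iNSC_13F over NSC, and scaling to the hybridization controls gave 5 for iNSC_14F over NSC. A floor at the 75th percentile gave 5 for iNSC_13F over MEF, 4 for iNSC_14F over MEF and 5 for iNSC_14F over NSC. A floor at the 99th percentile gave 2 for NSC over MEF and 1 for each of iNSC_13F over NSC, iNSC_14F over NSC and iNSC_14F over iNSC_13F. No floor gave 7 for NSC over MEF, 5 for iNSC_14F over MEF and 5 for iNSC_14F over NSC. Requiring both arrays to pass the floor gave 2 for NSC over MEF, 2 for iNSC_13F over NSC, 1 for iNSC_14F over NSC and 1 for iNSC_14F over iNSC_13F. At 4-fold there were 2 for NSC over MEF and 0 for each of iNSC_13F over NSC, iNSC_14F over NSC and iNSC_14F over iNSC_13F. Leaving genes out and raising the fold lower a count by construction, and otherwise the cause was not tested. Lhx2 and Zic1 in the 3 comparisons with MEF were past 2-fold under all 9 alternatives, 4-fold included. Of 249 recomputed log2 differences 59 moved by at least the SD of the induced pair, 0.59. A change of sign was looked for only in those past 2-fold as reported, and 0 had it. Bounds among these keep their sign while the dimmer array stays at the floor. Of the smaller differences from NSC, Lhx2 in both induced populations and Zic1 in iNSC_13F turned from higher to lower with scaling to the hybridization controls. Relative to the median of all measured genes these kept their sign. Signals near background limit Six3, Otx1, Otx2, En1, En2 and Gbx2, whose folds are mostly bounds.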

Other observations

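Genes of partner proteins and of other LIM-domain proteins were read as a further list. Tle genes encode Groucho corepressors, which bind Six3 and engrailed proteins, and Ldb genes encode LIM-binding partners of Lhx2. Lmo genes encode other LIM-domain proteins. Of 13 genes, Pbx genes included, 12 had a probe set and 11 were above the floor on iNSC_14F, 12 on iNSC_13F, 11 on NSC and 10 on MEF. Lmo1 had signals of 5925 on iNSC_14F, 4577 on iNSC_13F, 1503 on NSC and 382 on MEF. It was 3.94-fold higher in iNSC_14F and 3.04-fold higher in iNSC_13F than in NSC, with log2 differences of 1.98 and 1.61. With scaling to the hybridization controls the log2 difference of iNSC_13F was 0.53, short of 2-fold, and 1.18 relative to the median of all measured genes. Tle4 had 2931 on iNSC_14F, 2579 on iNSC_13F, 5328 on NSC and 251 on MEF. It was 11.7-fold, 10.3-fold and 21.2-fold higher in iNSC_14F, iNSC_13F and NSC than in MEF. Another Tle4 probe set gave 123 on iNSC_14F, 200 on iNSC_13F, 186 on NSC and 27.2 on MEF. Its floored differences from MEF were all short of 2-fold, and it put iNSC_13F above NSC rather than below. Of all measured genes 16.9% were higher and 19.1% lower in iNSC_14F than in NSC, and 14.9% higher and 20.5% lower in iNSC_13F. Against NSC 6 of 12 list genes reached 2-fold upward and 0 downward in iNSC_14F (median 0.98), and 5 were higher and 1 lower in iNSC_13F (median 0.81). With scaling to the hybridization controls these counts were 1 higher and 2 lower in iNSC_14F (median 0.09), and 0 higher and 3 lower in iNSC_13F (median -0.26). Relative to the median of all measured genes the list median was 0.65 in iNSC_14F and 0.51 in iNSC_13F as deposited, and 0.56 in iNSC_14F and 0.39 in iNSC_13F with that scaling.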
